A study of Mus musculus with 162 samples.

Results

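Neuroligins are adhesion proteins of the postsynaptic membrane, and 3 of their genes, Nlgn1, Nlgn2 and Nlgn3, were followed here through single neurons of the mouse embryo. They are 3 of the 22879 genes in the count table and were found by gene symbol and Ensembl identifier, not by their values. Each sample is 1 cell taken at age E17.5-E18.5, whose cytosol was drawn into a patch-clamp pipette and sequenced, and 148 of 162 cells passed the submitters' quality control. The cells came from 3 Cre driver lines, 122 from the Htr3a line, 22 from the Lhx6 line and 18 from the Nex line. Htr3a encodes a serotonin receptor of interneurons, Lhx6 a transcription factor of interneurons born in the medial ganglionic eminence, and Nex (Neurod6) a transcription factor of glutamatergic neurons. The labels name no treatment, no genotype beyond the driver line, and no reporter. Passed cells carried 9 type labels. There were 18 MGE-derived 1 cells (11 of the Htr3a and 7 of the Lhx6 line), 24 MGE-derived 2 cells (17 Htr3a and 7 Lhx6) and 11 CGE-derived cells, all of the Htr3a line. A further 4 cells were labelled GABAergic (3 Htr3a and 1 Lhx6), and the 57 cells of these 4 labels are called GABAergic cells below. The 12 Cajal Retzius cells were all of the Htr3a line, and the 11 VZ-derived cells were 8 Htr3a, 1 Lhx6 and 2 Nex cells. Glutamatergic 1 held 33 cells (23 Htr3a and 10 Nex) and Glutamatergic 2 held 13 (12 Htr3a and 1 Nex), 46 glutamatergic cells in all, and 22 cells were Undefined. MGE, CGE and VZ are read as the medial and caudal ganglionic eminences, where cortical interneurons are born, and the ventricular zone. A driver line marks the cells that once used its promoter and need not match the type label.

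Neuroligins reach across the synaptic cleft to neurexins on the presynaptic side, and their short cytoplasmic tails hold scaffold proteins. In the mature mouse forebrain Nlgn1 acts mainly at excitatory synapses, Nlgn2 mainly at inhibitory synapses, and Nlgn3 at both. The tail ends in a motif that binds PDZ domains of scaffolds such as PSD-95 (gene Dlg4), and carries a stretch that binds gephyrin (gene Gphn), the scaffold of inhibitory synapses. At the age sampled here most cortical synapses have not yet formed, and interneurons are still migrating into the cortex.

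On build GRCm38 with the GENCODE M21 annotation, Nlgn1 (ENSMUSG00000063887) lies on the minus strand of chromosome 3 from 25426215 to 26332460, Nlgn2 (ENSMUSG00000051790) on the minus strand of chromosome 11 from 69823122 to 69837784, and Nlgn3 (ENSMUSG00000031302) on the plus strand of chromosome X from 101299168 to 101325963. Their annotated exons cover 13.422, 5.785 and 9.271 kb, so levels are compared between the 3 genes only per kilobase of exon. The 3 genes share no stretch of 50 bases with each other in their transcripts, so a read of that length cannot belong to 2 of them. Such stretches do occur in transcripts of other genes. This holds for 40.9% of those of Nlgn3 (249 genes, led by Gm21986), 8.77% of those of Nlgn1 (1 gene) and none of Nlgn2. Of the exon bases of Nlgn1, 9.16% also belong to the antisense gene A830092H15Rik, and 41.2% of those of Nlgn3 also belong to Gm21986 on the same strand. Neither of these genes is a row of the count table, how reads in the shared bases were counted is not given in the sources used here, and Nlgn2 shares none, so the level of Nlgn3 per kilobase is the least certain. Gene counts do not tell splice forms apart.

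The coding sequences show what the 3 proteins share. The last 60 bases are shown because they end in the PDZ-binding motif, with the last 4 codons and the stop codon in capitals, 5′ to 3′ on the coding strand, read from the GENCODE transcripts at chromosome 3:25433638-25433697 (minus), chromosome 11:69825203-69825262 (minus) and chromosome X:101320203-101320262 (plus).
Nlgn1: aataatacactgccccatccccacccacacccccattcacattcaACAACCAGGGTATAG
Nlgn2: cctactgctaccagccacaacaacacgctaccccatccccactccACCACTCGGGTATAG
Nlgn3: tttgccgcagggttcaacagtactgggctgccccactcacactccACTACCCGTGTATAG
In each pair of genes 12 of the 15 capital bases were identical. Upstream of these ends lies the stretch of 39 bases that encodes the gephyrin-binding part of the tail, shown with the codon of its tyrosine in capitals, from chromosome 3:25433794-25433832 (minus), chromosome 11:69825374-69825412 (minus) and chromosome X:101320083-101320121 (plus).
Nlgn1: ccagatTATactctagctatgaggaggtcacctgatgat
Nlgn2: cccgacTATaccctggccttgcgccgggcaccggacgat
Nlgn3: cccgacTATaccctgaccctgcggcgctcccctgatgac
Over the whole coding sequence 66.6% of aligned bases were identical between Nlgn1 and Nlgn2, 70.3% between Nlgn1 and Nlgn3 and 70.5% between Nlgn2 and Nlgn3.

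The animals behind the cells are not labelled, so a group of cells is treated as 1 sample, nothing was tested, and the SDs given are between cells. Levels are CPM, a gene's reads scaled to a common library total, taken over a group's summed counts. Differences are between group means of log2(CPM + 1), and one of at least 1 in size is called higher or lower. Intervals are 95% Poisson intervals for CPM and 95% Clopper-Pearson intervals for shares of cells, and cover counting error at most, because reads carried no molecular identifiers and copies of 1 molecule are counted repeatedly. Passed cells held 1710224 to 24836041 counts in 2066 to 14810 genes. How the type labels were assigned is not given in the sources used here, and they may come from these cells' own expression. The 8 GABAergic markers summed to 2077 to 2859 CPM in the 4 GABAergic labels, against 86.1 CPM in Glutamatergic 1 and 2.25 CPM in Glutamatergic 2 cells, and the 7 Cajal-Retzius markers had a median of 12989 CPM in cells of that label. In VZ-derived cells the 8 ventricular zone progenitor markers had a median of 0 CPM per cell and the 8 glutamatergic markers one of 1292 CPM, so that label goes with neuronal more than progenitor markers. The 8 microglia markers, all with a count in both classes, summed to 0 to 12230 CPM per GABAergic cell and 0 to 4755 CPM per glutamatergic cell.

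Nlgn1 was the neuroligin that varied most between type labels. It was high in VZ-derived cells (170.1 CPM, 95% interval 167.7 to 172.5), Glutamatergic 2 cells (166 CPM, 164 to 168) and Glutamatergic 1 cells (81.6 CPM, 80.6 to 82.6), and low in CGE-derived (25.7 CPM), MGE-derived 2 (5.16 CPM), MGE-derived 1 (4.57 CPM) and GABAergic label cells (0.746 CPM, 0.540 to 1.00). In Cajal Retzius cells, the early born reelin-secreting neurons of the cortical surface, it had no count in any of 12 cells. A floor of 3 counts over these cells would be 0.0192 CPM, and the Poisson upper limit is 0.0237 CPM. For the share of cells a floor of 3 cells would be 25%, and the Clopper-Pearson upper limit is 26.5%.

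Cell by cell, Glutamatergic 2 was the label in which every cell had a count of Nlgn1, 13 of 13 cells, with a lowest level of 10.2, a median of 130.3 and a highest of 526.6 CPM. Glutamatergic 1 cells spanned 0 to 324.4 CPM with a median of 15.2 CPM, and 22 of 33 had a count. In VZ-derived cells the range was 0 to 939.2 CPM with a median of 36.7 CPM, and 8 of 11 had a count. Both Glutamatergic 1 and VZ-derived cells thus mixed high cells with cells that had none. VZ-derived cell 8 held 42.9% of that label's Nlgn1 counts, and without it the level was 105.3 CPM.

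Among the 4 GABAergic labels 37 of 57 cells had no count of Nlgn1. It had a count in 4 of 18 MGE-derived 1 cells (median 0, highest 88.2 CPM), and without MGE-derived 1 cell 6, which held 91.1% of the counts, the level was 0.429 CPM. It had a count in 12 of 24 MGE-derived 2 cells, with a median of 0.0583 and a highest of 32.8 CPM. Of the 11 CGE-derived cells 8 had none, and the other 3 stood at 17.2, 65.7 and 185.7 CPM. Without CGE-derived cell 5 that label's level was 11.4 CPM. Of the 4 cells labelled GABAergic 1 had 3.60 CPM and the other 3 had 0. Undefined cells were mixed, with a count in 10 of 22 cells, a median of 0 and a highest of 1189 CPM in cell 19. Their level was 101.4 CPM with that cell and 51.4 CPM without it.

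**Figure D1:**
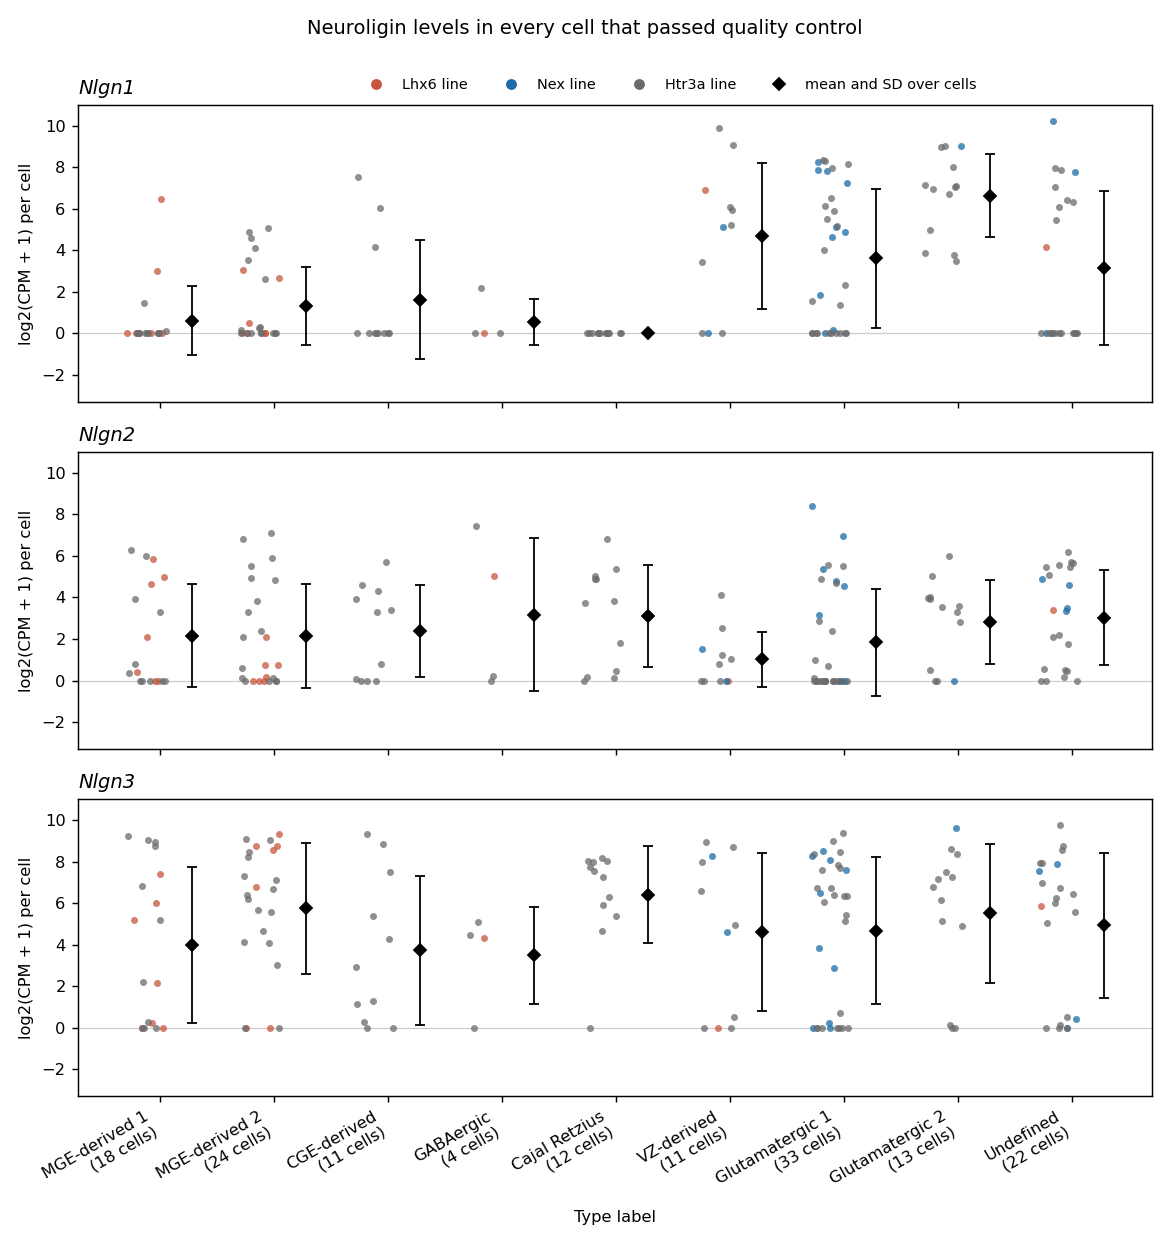
Level of each neuroligin in the 148 passed cells as log2(CPM + 1) (vertical axes), by type label (horizontal axis); each point is 1 cell, coloured by driver line, and black diamonds with bars are the mean and SD over cells. Nlgn1 lies at 0 in all 12 Cajal Retzius cells and above 10 CPM in all 13 Glutamatergic 2 cells. Nlgn3 spans most of the scale in all labels but GABAergic. Levels are not per kilobase of exon, so heights do not compare the genes.

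Ordered by the mean of log2(CPM + 1), Nlgn1 ran from Glutamatergic 2 (6.63 ± 2.00, SD, 13 cells) through VZ-derived (4.70 ± 3.50), Glutamatergic 1 (3.61 ± 3.33), Undefined (3.15 ± 3.69), CGE-derived (1.62 ± 2.87), MGE-derived 2 (1.33 ± 1.89), MGE-derived 1 (0.61 ± 1.65) and GABAergic (0.55 ± 1.10) to Cajal Retzius (0). No step between neighbours in this order exceeded the pooled SD of the 2 labels, and the widest, 1.93 between Glutamatergic 2 and VZ-derived cells, stood against a pooled SD of 2.85.

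Nlgn2 had a count in cells of every label. It stood at 57.6 CPM in the 4 cells labelled GABAergic, 19.9 in Undefined, 18.8 in Cajal Retzius, 18.0 in Glutamatergic 1, 16.3 in MGE-derived 2, 12.7 in Glutamatergic 2, 11.8 in MGE-derived 1, 8.90 in CGE-derived and 3.0 in VZ-derived cells. The high GABAergic value came from a single cell. GABAergic cell 3 had 173.5 CPM, cell 1 had 31.3, cell 2 had 0.168 and cell 4 had 0 CPM, and without cell 3 the level was 11.7 CPM. Without MGE-derived 1 cell 18 that label stood at 7.72 CPM.

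The labels with the most cells holding Nlgn2 were Cajal Retzius (11 of 12, 95% interval 61.5% to 99.8%), Undefined (19 of 22) and Glutamatergic 2 (10 of 13), and the one with the fewest was Glutamatergic 1 (15 of 33, 28.1% to 63.6%). Cajal Retzius cells ran from 0 through a median of 12.8 to 110.7 CPM. Glutamatergic 2 cells had a median of 10.8 and a highest of 62.4 CPM. In Glutamatergic 1 cells the median was 0 and the highest 343.0 CPM, in cell 31, and without that cell the level was 11.5 CPM. VZ-derived cells were low throughout, with 6 of 11 holding a count and 16.3 CPM at most. Without VZ-derived cell 9 their level was 0.718 CPM.

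The order of Nlgn2 by mean log2(CPM + 1) was GABAergic (3.17 ± 3.67, SD, 4 cells), Cajal Retzius (3.10 ± 2.44), Undefined (3.03 ± 2.30), Glutamatergic 2 (2.82 ± 2.03), CGE-derived (2.38 ± 2.21), MGE-derived 1 (2.15 ± 2.48), MGE-derived 2 (2.14 ± 2.48), Glutamatergic 1 (1.85 ± 2.58) and VZ-derived (1.02 ± 1.32). Steps between neighbours were 0.82 at most, with pooled SDs of 2.05 or more. Traces were common for this gene, and 24 of the 100 passed cells with a count of Nlgn2 held less than 1 CPM. The counts were 10 of 117 for Nlgn3 and 6 of 73 for Nlgn1, but a fixed CPM is not per kilobase. The exons of Nlgn2 are the shortest of the 3, so these shares do not rank the genes. With a count of at least 10 required, the share of MGE-derived 2 cells with Nlgn2 was 45.8% in place of 70.8%.

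Nlgn3 was present in every label, at similar summed levels in all but the GABAergic label. Summed CPM were 177.8 in MGE-derived 2, 150.0 in Glutamatergic 2, 149 in Cajal Retzius, 136 in MGE-derived 1, 132 in CGE-derived, 129.8 in VZ-derived, 128 in Glutamatergic 1 and 121 in Undefined cells. Only the GABAergic label stood lower, at 17.2 CPM, with cells at 33.5, 21.2, 19.05 and 0 CPM. A count was found in 117 of 148 passed cells (79.1%, 71.6% to 85.3%), from 13 of 18 MGE-derived 1 cells to 11 of 12 Cajal Retzius cells.

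Levels of Nlgn3 differed widely between the cells of a label. Medians were 167.9 CPM in Cajal Retzius, 106.9 in Glutamatergic 2, 92.2 in MGE-derived 2, 79.1 in Glutamatergic 1, 68.3 in Undefined, 19.7 in MGE-derived 1, 6.57 in CGE-derived and 30.2 in VZ-derived cells, each with a lowest cell at 0. The highest cells reached 290.0 CPM in Cajal Retzius, 777.8 in Glutamatergic 2, 632.2 in MGE-derived 2, 661.8 in Glutamatergic 1, 873.5 in Undefined, 591.9 in MGE-derived 1, 643.4 in CGE-derived and 494.4 in VZ-derived cells. Medians thus differed more between labels than summed levels did. CGE-derived cell 4 held 50.8% of that label's counts, and without it the level was 72.7 CPM.

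By mean log2(CPM + 1) the order of Nlgn3 was Cajal Retzius (6.41 ± 2.33, SD, 12 cells), MGE-derived 2 (5.74 ± 3.14), Glutamatergic 2 (5.50 ± 3.37), Undefined (4.92 ± 3.51), Glutamatergic 1 (4.67 ± 3.55), VZ-derived (4.6 ± 3.81), MGE-derived 1 (3.97 ± 3.76), CGE-derived (3.72 ± 3.57) and GABAergic (3.48 ± 2.34). No neighbours differed beyond their pooled SD, the widest step being 0.67 against an SD of 2.77.

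**Figure D2:**
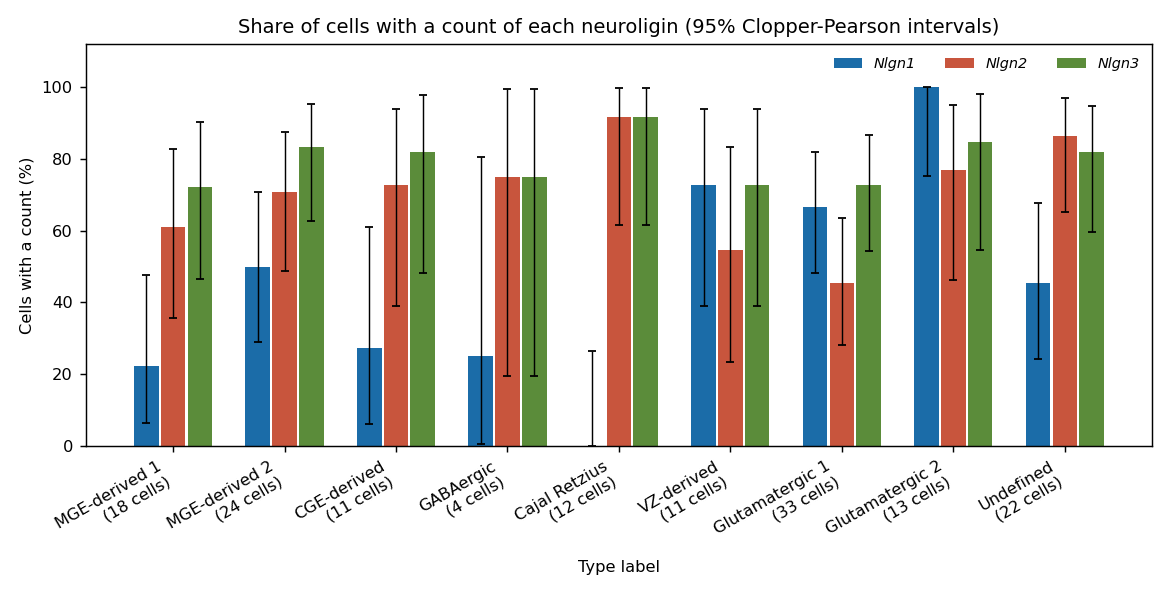
Share of passed cells with a count of each neuroligin (vertical axis, percent) by type label (horizontal axis); bars are shares and lines are 95% Clopper-Pearson intervals. The share for Nlgn1 runs from 0% in Cajal Retzius to 100% in Glutamatergic 2 cells, while that for Nlgn3 stays between 72.2% and 91.7%.

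Over 9 comparisons of cell groups the 3 genes gave 27 differences, of which 12 (44.4%) were called, 5 for Nlgn1, 4 for Nlgn2 and 3 for Nlgn3. Over all measured genes 29.6% of differences were called, from 15.8% to 50.3% by comparison. Of the 27, 4 exceeded the pooled SD between cells, all of Nlgn1. Several comparisons share their glutamatergic cells and are given side by side, not as support for each other.

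GABAergic cells held far less Nlgn1 than glutamatergic cells, and about the same Nlgn2 and Nlgn3 by mean log2(CPM + 1) and by summed counts. For Nlgn1, 20 of 57 GABAergic cells had a count, from 0 through a median of 0 to 185.7 CPM, against 35 of 46 glutamatergic cells, from 0 through 32.4 to 526.6 CPM. The ranges overlap, but 9 GABAergic cells against 30 glutamatergic cells reached 10 CPM. The mean of log2(CPM + 1) was 1.10 ± 2.00 in GABAergic cells and 4.46 ± 3.30 in glutamatergic cells (SD, 57 and 46 cells), a difference of -3.36. Of the 13139 genes measured, those with a count in at least 10% of one class's cells, 9.74% were lower by at least 1 on this scale and 6.07% were higher, the median gene was at -0.02, and 0.342% lay below Nlgn1. Under 10 alternative settings the difference ranged from -4.84 to -1.89, lower in each.

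Nlgn2 averaged 2.26 ± 2.46 in GABAergic cells and 2.12 ± 2.45 in glutamatergic cells on the log2(CPM + 1) scale, a difference of 0.14, with a count in 39 of 57 and 25 of 46 cells. Nlgn3 averaged 4.63 ± 3.44 and 4.90 ± 3.48, a difference of -0.27, with a count in 45 of 57 GABAergic and 35 of 46 glutamatergic cells. The medians of Nlgn3 lay further apart, at 35.6 CPM in GABAergic and 79.8 CPM in glutamatergic cells. Neither Nlgn2 nor Nlgn3 was called under any alternative over all lines, and both changed sign under 2 of them. Microglial marker RNA stood at 962 CPM in GABAergic cells and 352 CPM in glutamatergic cells by summed counts. Its medians per cell were 0.0916 and 0.141 CPM, so the summed values rest on cells with high levels. The part of this RNA in the differences of the neuroligins was not tested.

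Within the Htr3a line, which supplies both classes, Nlgn1 again stood lower in GABAergic cells. A count was found in 15 of 42 GABAergic and 25 of 35 glutamatergic cells, with medians of 0 and 31.1 CPM, and the log2 difference was -3.12 (SD 2.05 and 3.32). In this comparison 13.4% of genes were lower by at least 1 and 6.95% higher. Nlgn2 differed by 0.59 and Nlgn3 by -0.18, neither called. By mean CPM Nlgn2 passed the threshold at 1.18, with 21.5 CPM in GABAergic cells and 9.52 CPM in glutamatergic cells, and GABAergic cell 3 held 33.3% of its GABAergic counts.

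MGE-derived and CGE-derived interneurons of the Htr3a line, 28 and 11 cells, differed in Nlgn3. Its median was 60.9 CPM in MGE-derived and 6.57 CPM in CGE-derived cells, with a count in 23 of 28 and 9 of 11 cells, and the log2 difference was 1.49 (SD 3.32 and 3.57). Of all genes 19.3% were higher by at least 1 and 8.58% lower, and the median gene stood at 0.27, so the members' 1 call of 3 is set against a comparison that leans to MGE-derived cells. By summed counts the level was 162 CPM in MGE-derived and 132 CPM in CGE-derived cells (log2 ratio 0.30), and among cells with 4000 to 8000 genes the difference was 0.17, so the call rests on the scale and on which cells were taken. Without CGE-derived cell 4 the CGE-derived level was 72.7 CPM. Nlgn1 (-0.65) and Nlgn2 (0.06) were not called. Summed counts of Nlgn1 were 3.89 CPM in MGE-derived and 25.7 CPM in CGE-derived cells, a log2 ratio of -2.73 that leans on the 3 CGE-derived cells with a count.

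Between the MGE labels Nlgn3 was again the gene that differed. MGE-derived 1 cells had a median of 19.7 CPM, against 92.2 CPM in MGE-derived 2 cells, and 6 of 18 against 12 of 24 cells reached 100 CPM. The log2 difference was -1.77 (SD 3.76 and 3.14), in a comparison where 22.6% of genes were lower, 2.61% were higher and the median gene stood at -0.39. MGE-derived 1 cells also had fewer genes per cell (median 4563 against 5493.5), and the part of that in this difference was not tested. By summed counts the log2 ratio was -0.38. Nlgn1 differed by -0.71 and Nlgn2 by 0.00. By line the Nlgn2 values parted: MGE-derived 1 minus MGE-derived 2 was -0.92 in the Htr3a line (11 and 17 cells) and 2.03 in the Lhx6 line (7 and 7 cells), the second an alternative chosen after the data were seen. For Nlgn3 the difference in the Lhx6 line was -3.02, and in the Htr3a line it was smaller in size but still called. Summed levels of Nlgn3 in MGE-derived 1 and 2 cells were 39.7 and 275 CPM in the Lhx6 line. In the Htr3a line they went the other way, at 179 and 152 CPM.

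Among glutamatergic cells of the Htr3a line, Glutamatergic 1 cells held less Nlgn1 and less Nlgn2 than Glutamatergic 2 cells. Nlgn1 had a count in 13 of 23 Glutamatergic 1 and 12 of 12 Glutamatergic 2 cells, with medians of 1.957 and 126.3 CPM, and a log2 difference of -3.33 (SD 3.34 and 1.95). Nlgn2 had a count in 9 of 23 and 10 of 12 cells, with medians of 0 and 10.9 CPM, and a difference of -1.85 (SD 2.02 and 1.93). Nlgn3 was not called (-0.46). The comparison as a whole leans the same way: 48.4% of genes were lower in Glutamatergic 1 cells, 1.89% were higher, the median gene was at -0.95, and Glutamatergic 1 cells had a median of 5183 genes against 7642. By summed counts neither gene passed the threshold, at log2 ratios of -0.82 for Nlgn1 and -0.72 for Nlgn2. Among cells with 4000 to 8000 genes the differences were -3.73 for Nlgn1 and -2.02 for Nlgn2, and 1.18 for Nlgn3.

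Cajal Retzius cells lacked Nlgn1, compared with glutamatergic cells of the Htr3a line, 12 against 35 cells. By mean log2(CPM + 1) their Nlgn2 and Nlgn3 stood higher, in a comparison that leans to Cajal Retzius cells on this scale. Nlgn1 had 0 counts in Cajal Retzius cells, against 103 CPM in glutamatergic cells with a count in 25 of 35. Set against a floor of 3 counts over the Cajal Retzius cells (0.0192 CPM), the ratio is 5377-fold. This ratio depends on the chosen floor and is not a lower limit, since the Poisson upper limit for 0 counts is 0.0237 CPM. The log2 difference of Nlgn1 was -4.24 (SD 0 and 3.32), and 0.350% of all genes lay lower. Nlgn2 had medians of 12.8 CPM in Cajal Retzius and 0.403 CPM in glutamatergic cells and differed by 1.26 (SD 2.44 and 2.15). Nlgn3 had medians of 167.9 and 79.1 CPM and differed by 1.55 (SD 2.33 and 3.45). Of all genes 75.7% lay below Nlgn2 and 82.4% below Nlgn3.

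Here 30.5% of all genes were higher in Cajal Retzius cells, 9.13% were lower and the median gene was at 0.42, with a median of 6714 genes in Cajal Retzius cells against 5853 in glutamatergic cells. Nlgn1 was lower under each of 8 alternatives. Among cells with 4000 to 8000 genes Nlgn2 differed by 0.20 and Nlgn3 by 0.60, and by summed counts they stood at 0.85 and 0.41, below the threshold. Neither was called with a pseudocount of 10 CPM.

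VZ-derived cells, 11 against 46 glutamatergic cells over all lines, held less Nlgn2. Summed counts gave 3.0 CPM in VZ-derived and 16.1 CPM in glutamatergic cells, a 5.36-fold lower level, and the log2 difference was -1.10 (SD 1.32 and 2.45). Without the cell of most counts the levels were 0.718 CPM in VZ-derived cells (cell 9 left out) and 11.9 CPM in glutamatergic cells (Glutamatergic 1 cell 31). The medians were 0.746 and 0.508 CPM, so the difference lies in the high cells: 1 of 11 VZ-derived and 16 of 46 glutamatergic cells reached 10 CPM. Of all genes 14.7% were lower and 11.6% higher. Within the Htr3a line the difference was -0.62, not called. Nlgn1 (0.24) and Nlgn3 (-0.30) were not called.

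**Figure D3:**
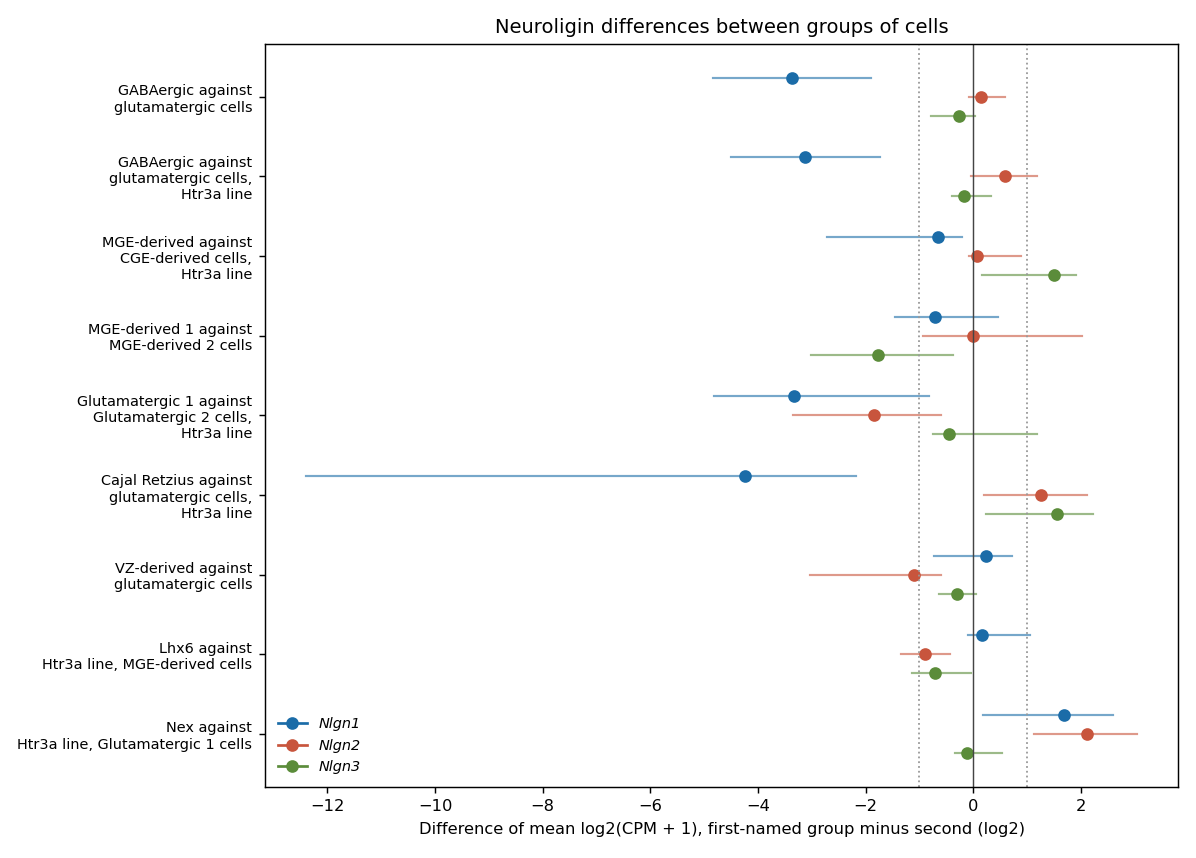
Difference of mean log2(CPM + 1) of each neuroligin in 9 comparisons of cell groups (rows), as the first-named group minus the second (horizontal axis, log2); dots are the reported values, lines the lowest to highest value under the alternatives, and dotted lines mark a size of 1. Nlgn1 lies left of -1 in GABAergic, Glutamatergic 1 and Cajal Retzius cells. Its line to -12.39 comes from summed counts with 0 set to a floor of 3 counts, and is not a limit.

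Driver lines were compared within a type. Among MGE-derived cells, the 14 of the Lhx6 line and the 28 of the Htr3a line differed by 0.15 for Nlgn1, -0.89 for Nlgn2 and -0.71 for Nlgn3, none called, where 9.01% of genes were higher in the Lhx6 line and 20% lower. Summed levels hid opposite values within the labels. In MGE-derived 2 cells Nlgn2 stood at 0.518 CPM in the Lhx6 line (4 of 7 cells, highest 3.27 CPM) and 20.5 CPM in the Htr3a line (13 of 17 cells, highest 136.0 CPM). In MGE-derived 1 cells it stood at 16.3 CPM in the Lhx6 line (5 of 7 cells) and 9.76 CPM in the Htr3a line (6 of 11 cells). Single cells weigh on these values: without the cell of most counts Nlgn2 was at 0.216 CPM in Lhx6 MGE-derived 2 cells (cell 2 left out), 10.4 CPM in Lhx6 MGE-derived 1 cells (cell 5) and 3.42 CPM in Htr3a MGE-derived 1 cells (cell 18). Nlgn3 went the other way, at 275 CPM in the Lhx6 line and 152 CPM in the Htr3a line among MGE-derived 2 cells, and at 39.7 CPM in the Lhx6 line and 179 CPM in the Htr3a line among MGE-derived 1 cells. Without MGE-derived 1 cell 2, which held 52.2% of the counts, the Lhx6 value was 21.6 CPM.

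Among Glutamatergic 1 cells the 10 of the Nex line held more Nlgn1 and Nlgn2 than the 23 of the Htr3a line. Nlgn2 had a count in 6 of 10 Nex and 9 of 23 Htr3a cells, with medians of 15.1 and 0 CPM, summed levels of 45.1 and 8.28 CPM, and a log2 difference of 2.12 (SD 3.19 and 2.02). Glutamatergic 1 cell 31 held 56.5% of the Nex counts, and without it the Nex level was 21.2 CPM. Nlgn1 had a count in 9 of 10 Nex and 13 of 23 Htr3a cells, medians of 31.2 and 1.957 CPM and a difference of 1.69 (SD 3.16 and 3.34), while summed levels were close, at 89.1 and 78.9 CPM. Nlgn3 differed by -0.11. In this comparison 14.3% of genes were higher and 19.1% lower. Each line came from its own animals, and its effect cannot be told apart from theirs or from any unlabelled batch.

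Most cells held more than 1 neuroligin. Of 148 passed cells 42 had counts of all 3 genes, 69 of 2, 26 of 1 and 11 of none. The commonest pair was Nlgn2 with Nlgn3, found without Nlgn1 in 42 cells, among them 10 of the 12 Cajal Retzius cells, 8 of 18 MGE-derived 1 and 8 of 24 MGE-derived 2 cells. Nlgn1 with Nlgn3 and without Nlgn2 was found in 20 cells, 8 of them Glutamatergic 1 cells. All 3 were found in 8 of 13 Glutamatergic 2 and 10 of 33 Glutamatergic 1 cells. Only 4 cells held Nlgn1 alone, 9 Nlgn2 alone and 13 Nlgn3 alone. Any count, even a single read, was taken as presence here. With a count of at least 10 required, 8 in place of 11 of the 12 Cajal Retzius cells held Nlgn2.

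Per kilobase of exon, Nlgn3 was the highest of the 3 in 86 cells, Nlgn2 in 30 and Nlgn1 in 21. Of the 3 genes' summed level per kilobase, Nlgn3 made up 86.1% in MGE-derived 1 cells and 85.7% in MGE-derived 2 cells, 83.2% in Cajal Retzius and 80.5% in CGE-derived cells. In glutamatergic labels it made up less, 60.1% in Glutamatergic 1 and 52.6% in Glutamatergic 2 cells, and 51.5% in VZ-derived cells. The share of Nlgn1 was 46.6% in VZ-derived, 40.2% in Glutamatergic 2 and 26.4% in Glutamatergic 1 cells, against 10.8% in CGE-derived cells, 1.99% and 1.72% in the MGE-derived 1 and 2 labels and 0% in Cajal Retzius cells. Nlgn2 made up 1.91% in VZ-derived cells and 7.14% to 16.8% in the other labels, apart from the 4 cells labelled GABAergic, where cell 3 brought it to 83.9%.

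**Figure D4:**
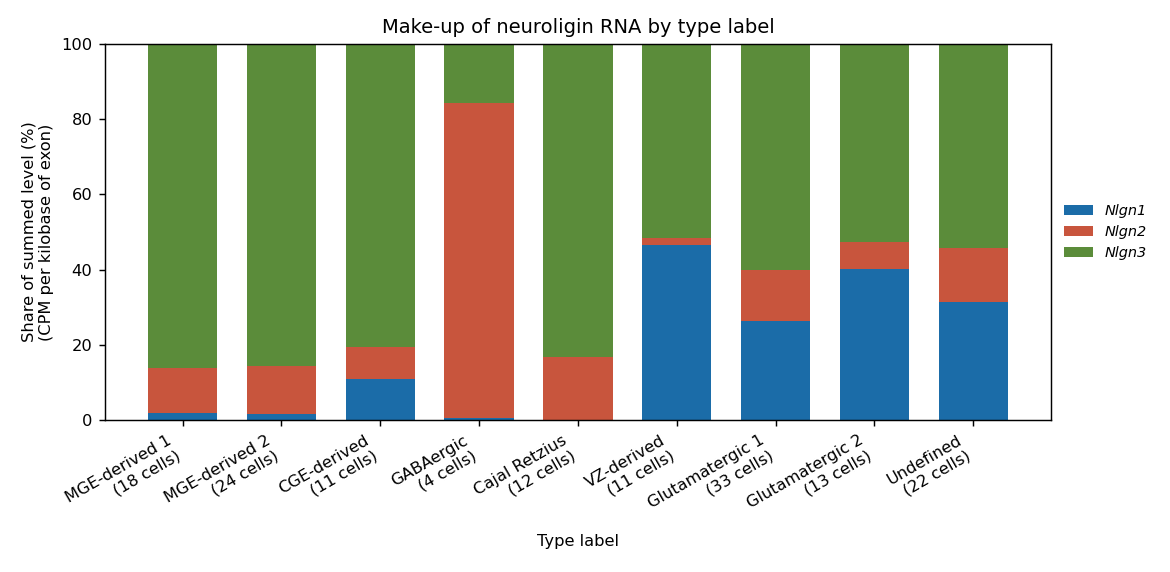
Share of each neuroligin in the summed level of the 3 genes per kilobase of exon (vertical axis, percent) by type label (horizontal axis). Nlgn3 makes up 80.5% to 86.1% in the MGE-derived, CGE-derived and Cajal Retzius labels, and Nlgn1 26.4% to 46.6% in the glutamatergic and VZ-derived labels.

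Across the 148 cells the levels of the 3 genes were weakly related, with Pearson's r of 0.12 between Nlgn1 and Nlgn2, 0.13 between Nlgn1 and Nlgn3 and 0.12 between Nlgn2 and Nlgn3 on the log2(CPM + 1) scale (Spearman's rho 0.09, 0.11 and 0.10). Within the 46 glutamatergic cells r was 0.31, 0.29 and 0.13 for the same pairs, and within the 57 GABAergic cells -0.05, 0.04 and -0.02. These are descriptions over cells that share type, line and depth. Each gene's level went with the number of genes per cell at r of 0.24 for Nlgn1, 0.30 for Nlgn2 and 0.32 for Nlgn3.

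The genes most like each neuroligin over all passed cells, by Pearson's r among 9369 genes with a count in at least 25% of cells, were Lmo7 (0.52), Sybu (0.51), Cpne4 (0.47), Tox (0.46) and Zbtb18 (0.45) for Nlgn1. Sybu encodes syntabulin, a linker of cargo to kinesin motors, and Zbtb18 a transcriptional repressor of cortical projection neurons. Within the 57 GABAergic cells r was 0.08 for Lmo7 and 0.54 for Sybu, and within the 46 glutamatergic cells 0.41 and 0.24. For Nlgn2 the genes were Ep400 (0.44), Zfp462 (0.42), Gm10308 (0.40), Bcr (0.39) and Plekha5 (0.38). Ep400, a chromatin remodeller, kept an r of 0.48 within GABAergic and 0.42 within glutamatergic cells. For Nlgn3 they were Ctnna2 (0.46), Scamp5 (0.42), Dhx36 (0.40), Srp14 (0.39) and Fem1a (0.38). Ctnna2 encodes alpha-N-catenin, which links cadherins to actin, and had an r of 0.39 within GABAergic and 0.57 within glutamatergic cells. The 15 genes also went with the number of genes per cell, at r of 0.14 to 0.24 for those like Nlgn1, 0.22 to 0.41 for those like Nlgn2 and 0.33 to 0.44 for those like Nlgn3, and the part of depth in these likenesses was not tested. Of the values of r within the 2 classes, 21 lay inside the 95% interval of the r over all passed cells and 9 outside it, 8 below and 1 above.

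Genes of the neuroligin pathway were set beside the 3 members in the comparison of GABAergic with glutamatergic cells. Both listed presynaptic partners were higher in GABAergic cells: Nrxn3 at 417 against 50.1 CPM (log2 difference 5.07, a count in 54 of 57 and 26 of 46 cells) and Nrxn2 at 48.2 against 19.05 CPM (1.10). The MDGA proteins, which bind neuroligins and keep them from neurexins, were not called, with differences of -0.59 for Mdga1 (a count in 11 of 57 and 12 of 46 cells) and -0.69 for Mdga2 (20 of 57 and 23 of 46). The median over all genes was -0.02.

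Of 16 measured scaffolds of excitatory synapses 2 were higher and 4 lower in GABAergic cells, with a list median of -0.50, where 6.07% of all genes were higher and 9.74% lower. Lower were Homer1, which ties glutamate receptors to the scaffold (-2.25, 48.6 against 79.0 CPM), Dlg1, which encodes SAP97 (-2.02, 9.49 against 50.7 CPM), Magi3 (-1.30) and Magi2 (-1.26). Higher were Magi1 (1.79, 85.1 against 31.5 CPM) and Dlgap2 (1.38, 94.1 against 35.1 CPM). Dlg4, which encodes PSD-95, stood at 4.44 CPM in GABAergic and 11.2 CPM in glutamatergic cells (-0.68, not called). By summed counts the Homer1 difference was 1.63-fold and that of Magi2 1.21-fold, both under 2-fold.

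Of 6 organisers of inhibitory synapses none was higher and 1 was lower, with a list median of 0.43. The one was Gphn, the gephyrin gene, at -2.08, with a count in 38 of 57 GABAergic and 39 of 46 glutamatergic cells and summed levels of 86.9 and 137 CPM (1.58-fold). Iqsec3, which encodes a guanine nucleotide exchange factor of inhibitory synapses, stood at 54.4 CPM in GABAergic and 35.8 CPM in glutamatergic cells (0.86), and Igsf9b, an adhesion protein, at 10.9 and 15.4 CPM (-0.79), neither called. Of 5 genes for proteases that shed neuroligins and for their partners 1, not named here, was higher and none was lower, with a list median of -0.17. Of those not called, Adam10, which cuts neuroligins at the membrane, stood at 0.34, Mmp9 at -0.29 and Ncstn at -0.79.

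Among 12 measured of 14 other ligands of neurexins, 2 were higher and 4 lower (list median -0.42), against the same 6.07% and 9.74% of all genes. Nxph1, a secreted neurexophilin, was at 455 CPM in GABAergic cells, with a count in 37 of 57, against 0.0132 CPM in glutamatergic cells, with a count in 6 of 46 (5.59). Clstn3 was also higher (1.40). Lrrtm1, a postsynaptic leucine-rich repeat protein of excitatory synapses, was at 109.7 against 356 CPM (-2.88), and Clstn2 (-1.81), Lrrtm3 (-1.73) and Nxph4 (-1.05) were lower too. Magi3, Magi2, Clstn3 and Nxph4 are named because they make up these counts, chosen after their values were seen. Lists were not tested.

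**Figure D5:**
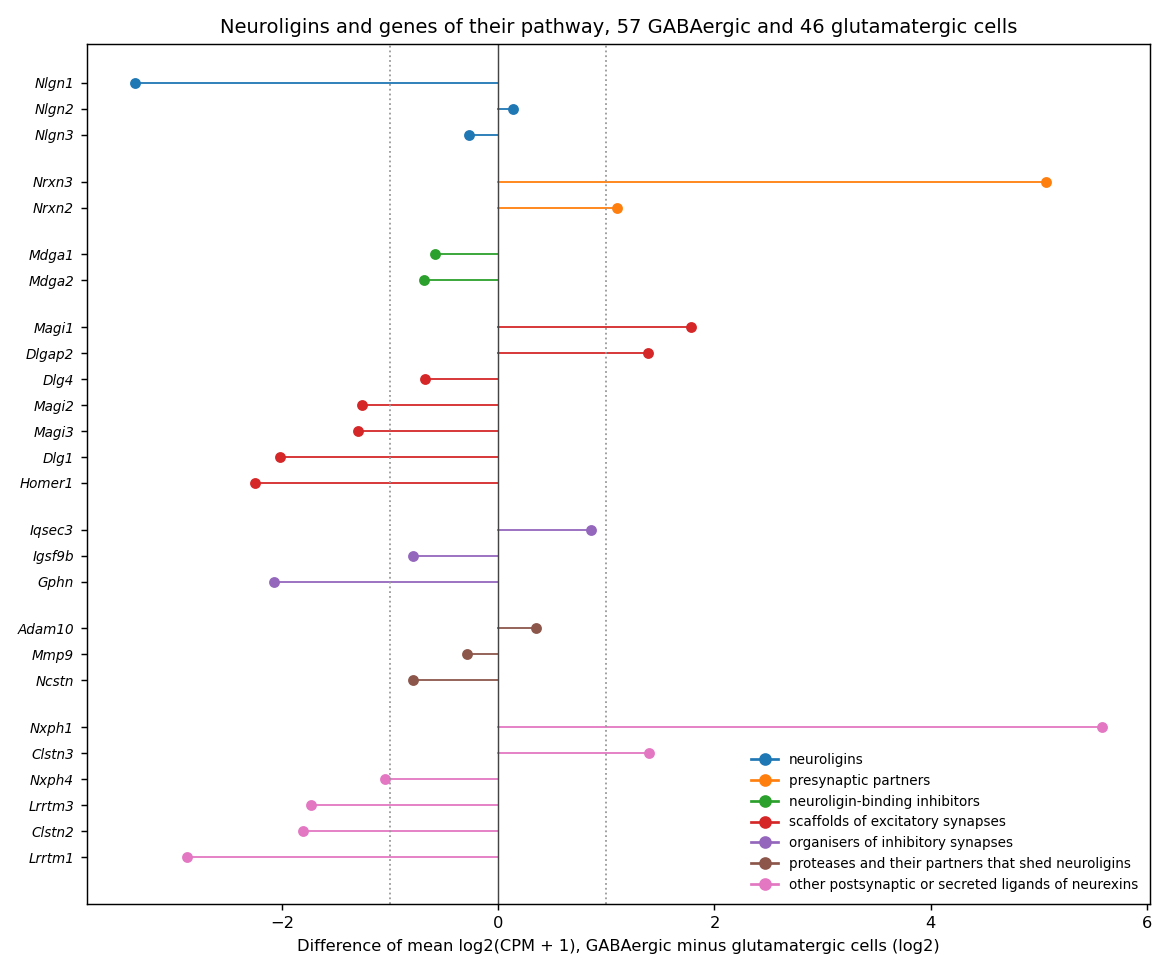
Difference of mean log2(CPM + 1), GABAergic minus glutamatergic cells (horizontal axis, log2). Rows are the 3 neuroligins and the genes of 6 pathway lists named in the text for this comparison, coloured by list. Lhfpl4 and Slitrk3 are not drawn. Dotted lines mark a size of 1. Nlgn1 at -3.36 lies farther left than any other gene drawn, the lowest of which is Lrrtm1 at -2.88, and Nrxn3 and Nxph1 lie farthest right.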

How the data were processed

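Reads per gene of 162 single cells were deposited as whole-number counts by Ensembl identifier. The submitters' processing notes list featureCounts, STAR and Trimmomatic, without versions, and build GRCm38. The authors' normalized signal table of the 148 passed cells served as an alternative. Another count table, keyed by symbol, was not used, because the rows at hand hold no neuroligin. Of 22880 identifiers 22570 were given a symbol from GENCODE M21, leaving 22879 genes. No 2 cells had identical counts.

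Groups were taken from the labels. CPM is a gene's count over the cell's total; genes with a count in at least 10% of one group's cells were measured; a difference of at least 1 in mean log2(CPM + 1) was called, with no test. Scripts ran in Python 3.11.15 with pandas 2.3.3, SciPy 1.17.1 and Biopython 1.88, and edgeR 4.0.16 gave the alternative library sizes. The comparison was run on simulated data with known changes. These shuffled each gene's levels over cells, so they lack the real differences in genes per cell and do not check the comparisons for them. The members, comparisons and lists were chosen with earlier results of these data known. Named genes are the members, up to 4 per pathway list with the largest difference between GABAergic and glutamatergic cells, 6 fixed pathway genes, and the 5 genes most correlated with each member; some genes are not reported here.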

Additional observations from a re-analysis of the deposited data

Results flagged for a closer look

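Of 18 combinations of gene and group of 4 to 10 cells, 3 held a cell that stood apart from the others by Dixon's 95% critical value. That value is made for normally distributed levels. Many levels here are 0, and a lone cell above 0 is always flagged, so no chance rate can be given. Nlgn2 was 3.27 CPM in MGE-derived 2 cell 2, against 0.700 CPM in the next of the 7 Lhx6 line cells. Nlgn1 was 3.60 CPM in GABAergic cell 2 and 0 in the other 3 cells of that label. Nlgn3 was 0 CPM in GABAergic cell 3, against 19.05 CPM in the next lowest of the 4, and the same cell had the highest Nlgn2 of the label.

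The 14 cells that failed quality control enter no comparison, and their counts of all 3 genes lay above the 0.0454 CPM that 3 counts over these cells would give. Nlgn1 stood at 151.9 CPM with a count in 3 of 14 cells, and Failed cell 1 held 68.6% of it (53.3 CPM without that cell). Nlgn2 stood at 36.1 CPM with a count in 5 cells (17.6 CPM without Failed cell 9). Nlgn3 stood at 64.1 CPM with a count in 2 cells, nearly all of it in Failed cell 14.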

How the results depend on the processing

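Of the 12 called differences 4 kept their call under every alternative: Nlgn1 in GABAergic against glutamatergic cells, over all lines and in the Htr3a line, Nlgn1 in Cajal Retzius cells, and Nlgn2 in the Nex line. The other 8 lost it under 1 to 4 settings, mostly a pseudocount of 10 CPM or summed counts, and 8 uncalled ones gained one; no called difference changed sign, and the cause was not tested. By summed counts Nlgn1 in Cajal Retzius cells was at -12.39, a value set by the floor of 3 counts and not a limit. The number of genes past 2-fold moved most. In the order of the comparisons in the text it was 2077, 2756, 3970, 3493, 6332, 5107, 3223, 4103 and 4168 as reported; 3960, 4894, 6427, 6064, 5306, 6731 and 6262 with a pseudocount of 0.1 CPM, the glutamatergic labels and Cajal Retzius cells left out; 598, 884, 1256, 931, 2615, 2134, 945, 1372 and 1733 with 10 CPM; and 4751, 5725, 8117, 6721, 5727, 7941 and 7335 by summed counts, with the same left out because they moved by less than 1.5 times. By summed counts the share of these genes that were higher was 52.8% in place of 38.4% in GABAergic against glutamatergic cells, 51.2% in place of 34.1% in the Htr3a line, 34.4% in place of 10.3% between the MGE labels, 39.7% in place of 3.76% between the glutamatergic labels and 40.3% in place of 77.0% in Cajal Retzius cells. With 10 CPM it was 58.3% in place of 69.3% in MGE-derived against CGE-derived cells and 44.2% in place of 31.1% in the Lhx6 line. Since no animal is labelled, no spread between animals can be given. CPM from the table by symbol was not run, since its part held here has no neuroligin. No paired analysis was possible because no result comes from a test.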

Other observations

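Some organisers of inhibitory synapses differed between Cajal Retzius and glutamatergic cells of the Htr3a line, a comparison chosen after its values were seen. Of 6 such genes 4 were higher and 2 lower in the 12 Cajal Retzius cells, where 30.5% of all genes were higher and 9.13% lower, and 5 of the 6 are named here. Lhfpl4, which holds GABA-A receptors to neuroligin 2, was at 94.7 CPM in Cajal Retzius cells against 47.5 CPM in glutamatergic cells (log2 difference 2.21), Iqsec3 at 72.8 against 39.3 CPM (2.15) and Igsf9b at 25.9 against 16.1 CPM (1.38), each under 2-fold by these summed counts. Gphn was at 46.4 against 124 CPM (-1.85), and Slitrk3 had no count in Cajal Retzius cells, against a count in 10 of 35 glutamatergic cells (-1.25). None of this was tested.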
